A study of Mus musculus with 4 samples.

Results

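Glucose uptake and glycolysis genes of the mouse heart were followed here as a set of 10 genes: the glucose transporter genes Slc2a1 and Slc2a4, the hexokinase genes Hk1 and Hk2, the phosphofructokinase gene Pfkm, the aldolase gene Aldoa, the phosphoglycerate mutase gene Pgam2, the enolase gene Eno3 and the lactate dehydrogenase genes Ldha and Ldhb. The members were chosen by gene symbol, and each of the 10 was found as a single row among 23282 rows of genes, of which 17174 had at least 1 read in any heart. All 10 passed the minimum level used below in every comparison. The hearts came from CDF1 mice, a hybrid laboratory strain, labelled as postnatal day 28, with 10 mice planned per group and 1 heart library sequenced per group. The methods give that age for the purchase of the mice, and the hearts were taken later, at the end of the experiment. E-&T- mice (normal control) were healthy and sedentary, E+&T- mice (normal exercise) were healthy and ran at high intensity on a motorized treadmill, E-&T+ mice (cancer control) received CT26 cells and stayed sedentary, and E+&T+ mice (cancer exercise) received CT26 cells and ran. CT26 is a mouse colorectal cancer cell line, and it was injected through the tail vein, not into the heart, so that a tumor heart below means the heart of an injected mouse. A representative mouse of each group is described as the source for the gastrocnemius muscle and a similar procedure for the heart, so each library was probably 1 heart, although the heart samples are not described in those words. With 1 library per group, no difference below has a replicate check, and the comparisons describe these 4 libraries.

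Glucose enters the cardiomyocyte mainly through Glut4, the insulin-responsive transporter encoded by Slc2a4, and through Glut1, the basal transporter encoded by Slc2a1. Hexokinase traps it as glucose 6-phosphate, phosphofructokinase commits it to glycolysis, aldolase splits the sugar, and phosphoglycerate mutase and enolase act late in the chain before pyruvate is made. Lactate dehydrogenase interconverts pyruvate and lactate, and the B subunit (Ldhb) is the form typical of the adult heart while the A subunit (Ldha) is typical of fast muscle and of many growing or hypoxic cells. The adult heart draws most of its energy from fatty acids, and a larger share of glucose use is a known feature of the fetal and of the stressed heart.

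Each value is a normalized read count from 3′ mRNA sequencing, in which a transcript gives reads from its 3′ end, so that counts were not divided by gene length. Whole reads were recovered from the deposited values, and the libraries held 6595423 reads in the normal control, 8477104 in normal exercise, 9532852 in cancer control and 11546028 in cancer exercise. The 10 genes took 35488 to 45827 reads per library. Globin genes took 7.86% to 8.76% of the reads in 3 libraries and 37.3% in E+&T+, which therefore stood apart. Hbb-bs and Hbb-b1 had nearly the same reads in each library (805168 and 791336 in E+&T+). So did Hbb-bt and Hbb-b2 (254963 and 241043 in E+&T+). The same reads may thus have been counted on both rows, which would raise the globin shares and library totals. Outside the globin genes, the 10 genes took 0.590% of the reads in the normal control, 0.590% in normal exercise, 0.518% in cancer control and 0.588% in cancer exercise. The 12 cardiomyocyte markers summed to between 506028 and 554305 normalized reads, none was at 0 and none differed 2-fold in any comparison. The 15 skeletal muscle markers summed to between 156 and 259 normalized reads, with Myod1 at 0 in every library, so Eno3, Pgam2, Pfkm and Aldoa, which skeletal muscle also expresses, were read here against a heart background with hardly any skeletal muscle signal. In bulk tissue, fewer cells of a type and less RNA per cell cannot be told apart.

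The choice of scaling moved all genes together. Scaling to library size in place of the deposited normalization moved the median of all genes to -0.60 (log2) in E+&T+ against E-&T+, to -0.74 in E+&T+ against E+&T- and to -0.17 in E-&T+ against E-&T-, whereas the deposited medians lay between -0.01 and 0.002. With reads scaled outside the globin genes, the medians of all genes were -0.04, -0.18 and -0.18 in those comparisons. A scaling shifts every gene of a library by nearly the same amount, so it cannot change how a member stands relative to that median. Higher and lower below are meant on the deposited scale. Member differences between a pair of libraries are named where their sign turned under another scaling, or when reads were thinned to the smallest library. Contrasts between such differences, and values of the gene lists, are given on the deposited scale only.

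Slc2a1 was the member whose level differed most between hearts. It had 85.0 normalized reads in the normal control (74 reads), 134 in normal exercise (148 reads), 213 in cancer control (241 reads) and 129 in cancer exercise (118 reads). The sedentary tumor heart was the highest and the healthy sedentary heart the lowest, with the exercised hearts between them and close to each other. Slc2a4 had 1799 normalized reads in the normal control, 1749 in normal exercise, 1569 in cancer control and 1973 in cancer exercise. Its sedentary tumor heart was lowest and its exercised tumor heart highest, over a much narrower range of 0.33 on the log2 scale.

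Hk1, the hexokinase of most tissues, had 898 normalized reads in the normal control, 1001 in normal exercise, 1016 in cancer control and 1301 in cancer exercise. The exercised tumor heart stood above the other 3. Hk2, the insulin-regulated muscle hexokinase, had 2348 normalized reads in the normal control, 2475 in normal exercise, 1488 in cancer control and 2404 in cancer exercise. Here the sedentary tumor heart was alone at the bottom, and the 3 others lay close together.

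Pfkm, the muscle subunit of the enzyme that commits sugar to glycolysis, had 2205 normalized reads in the normal control, 1935 in normal exercise, 1386 in cancer control and 1954 in cancer exercise. It was lowest in the sedentary tumor heart, and the exercised hearts were nearly equal. Aldoa, the muscle aldolase, had 14085 normalized reads in the normal control, 14522 in normal exercise, 17928 in cancer control and 18216 in cancer exercise. Both tumor hearts were above both healthy hearts, and exercise hardly separated them. By reads, Aldoa ranked between 42 and 53 among all genes of each library and was the most highly read of the 10.

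Pgam2, the muscle phosphoglycerate mutase, had 4472 normalized reads in the normal control, 5007 in normal exercise, 3140.0 in cancer control and 3842 in cancer exercise. Both tumor hearts were below both healthy hearts, and in each pair the exercised heart was the higher. Eno3, the muscle enolase, had 5633 normalized reads in the normal control, 5525 in normal exercise, 3095 in cancer control and 4773 in cancer exercise. The sedentary tumor heart was lowest by a wide margin, and its rank by reads was 362, against 158 to 233 in the other libraries.

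Ldha had 2482 normalized reads in the normal control, 2711 in normal exercise, 3972 in cancer control and 3842 in cancer exercise, with both tumor hearts above both healthy hearts. Ldhb had 6671 normalized reads in the normal control, 6391 in normal exercise, 6303 in cancer control and 8106 in cancer exercise, and only the exercised tumor heart stood apart. On the deposited scale Slc2a4, Hk2, Pfkm, Pgam2, Eno3 and Ldhb had their lowest level in E-&T+, and Slc2a1 and Ldha their highest. How many of all genes had an extreme in that library was not counted. Under library size scaling Slc2a4, Pfkm, Pgam2 and Ldhb were lower in E+&T+ than in E-&T+, so E-&T+ was then not their lowest.

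**Figure D1:**
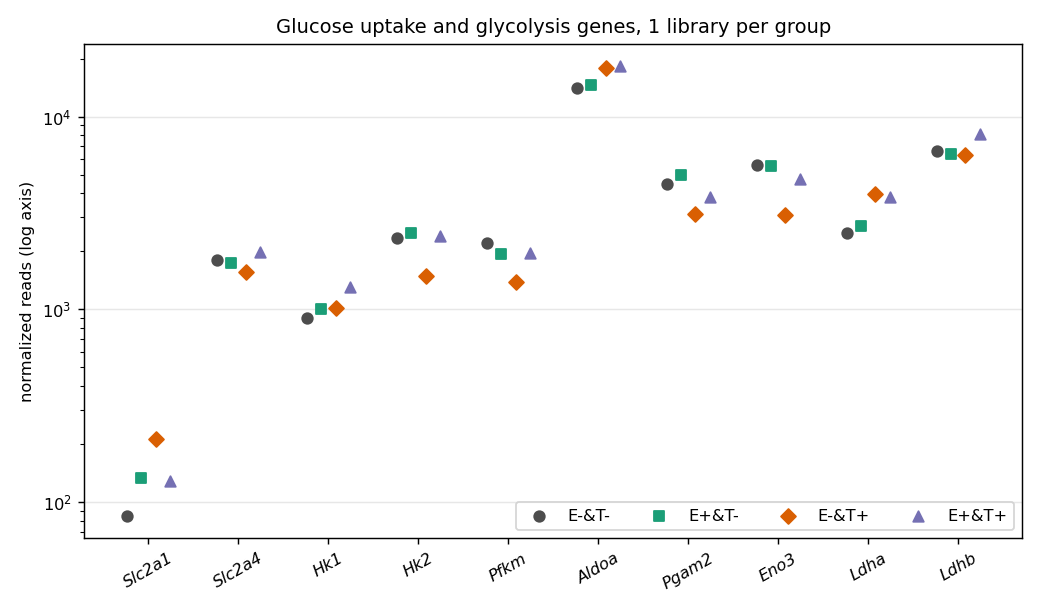
Normalized read count of the 10 genes (log axis) in each of the 4 heart libraries, 1 point per library and no error bars since each group is 1 library. The sedentary tumor heart (E-&T+) holds the lowest point of Slc2a4, Hk2, Pfkm, Pgam2, Eno3 and Ldhb and the highest point of Slc2a1 and Ldha. The share of all genes with an extreme there was not counted. Under library size scaling Slc2a4, Pfkm, Pgam2 and Ldhb were lower in E+&T+ than in E-&T+.

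The first comparison was that of sedentary hearts with and without tumor cells in the mouse (E-&T+ against E-&T-), and here the set split. Slc2a1 was 2.49-fold higher (log2 1.31, 95% counting interval 0.94 to 1.72), Ldha 1.60-fold higher (0.68, 0.60 to 0.75) and Aldoa 1.27-fold higher (0.35, 0.32 to 0.38). Eno3 was lower by log2 -0.86 (-0.93 to -0.80), Pfkm by -0.67 (-0.77 to -0.57), Hk2 by -0.66 (-0.75 to -0.56) and Pgam2 by -0.51 (-0.58 to -0.44). Muscle and other forms were only partly separated by direction. The muscle forms Hk2, Pfkm, Pgam2 and Eno3 were lower. Forms typical of other tissues were higher for Hk1 and, outside the rule for named genes, Pfkp at log2 0.33 (0.10 to 0.56). Against this, Aldoa, the muscle aldolase, was higher. Other forms were also lower, Pfkl by log2 -1.05 and Pgam1, outside the rule for named genes, by -0.59 (-0.81 to -0.37). Small differences remained for Slc2a4 at -0.20 (-0.30 to -0.10), Hk1 at 0.18 (0.05 to 0.31) and Ldhb at -0.08 (-0.13 to -0.03).

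A gene was called when it differed at least 2-fold and had at least 4 normalized reads in 1 of the libraries compared. Slc2a1 was the 1 member called in E-&T+ against E-&T-, where 27.6% of the 14317 genes tested were called in either direction and 14.6% were called higher. An exact binomial test of the reads of a pair of libraries, two-sided and adjusted by Benjamini-Hochberg over all genes tested, asks whether 2 libraries differ by more than read sampling, and does not compare conditions. By it 4 members were higher and 6 lower, against 25.9% of all genes higher and 25.6% lower. Deep counts pass that test easily, and 9 of the 10 members averaged over 500 normalized reads. Among the 2348 genes at or above that average, a limit set after seeing the data, 47.7% were higher and 33.0% lower, so passing was common for genes of this level. Of the 9 members at that level 0 were called at 2-fold, where 13.1% of such genes were. The median of the members was -0.14, against -0.01 over all genes tested and 0.10 over the genes averaging at least 500 normalized reads. Eno3 passed 2-fold as well when reads were scaled outside the globin genes (-1.03), to library size (-1.02) or without genes over 1% of a library (-1.02).

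Markers of other cells moved in the same hearts. The 12 macrophage markers summed to 3650.2 normalized reads in the normal control, 4926 in normal exercise, 8846 in cancer control and 5089 in cancer exercise, with Marco at 0 in E+&T-, and 9 of 12 were called higher in E-&T+ against E-&T-. The 9 fibroblast markers summed to 25845, 30915, 56154 and 32472 in the same order, none at 0, and 5 of 9 were called higher. Dcn alone made up 20423, 22489, 40453 and 29409 of the fibroblast sum in that order. In E+&T+ against E+&T-, 7 of the 9 fibroblast markers had lower values, 4 of them called, and 2 had higher values. Ldha followed the same order of libraries as both sums, and Slc2a1 had the same lowest and highest library. The part of these cells in the Slc2a1 and Ldha values was not tested. The 12 cardiomyocyte markers themselves were split in E-&T+ against E-&T-, with 6 higher and 6 lower by the read test, from -0.85 to 0.84. Their sum was 531935 in E-&T+ and 508192 in E-&T-, of which Tnnt2 alone made up 145836 and 91977. Actc1 (-0.85), Mybpc3 (-0.695), Ttn (-0.57) and Myl2 (-0.40), which encode parts of the sarcomere, were lower by amounts within or near the range of Eno3, Pfkm, Hk2 and Pgam2. Other sarcomere genes of the list were higher, namely Tnnt2, Tnni3, Myh6, Tnnc1 (40313 against 30999 normalized reads) and Actn2 (5881 against 3877). Ryr2 was higher as well (7674 against 4296). The part of the cardiomyocyte share in the values of Eno3, Pfkm, Hk2 and Pgam2 was not tested.

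Promoters are shown for a pair of the genes that were higher and a pair that were lower in E-&T+, picked after their values were seen. They are the RefSeq windows of 250 bases before to 50 after the first listed start (GRCm38.p6, the build of the reads), 5′ to 3′ on the gene's strand. Capitals mark, on either strand, the hypoxia-response core (ACGTG or GCGTG), the E-box CAGCTG bound by muscle factors, and the MEF2 consensus of muscle promoters. The windows lie at chr4:119108495-119108794 on the plus strand (Slc2a1), chr7:46845554-46845853 on the plus strand (Ldha), chr11:70656926-70657225 on the plus strand (Eno3) and chr11:5803747-5804046 on the minus strand (Pgam2).
Slc2a1: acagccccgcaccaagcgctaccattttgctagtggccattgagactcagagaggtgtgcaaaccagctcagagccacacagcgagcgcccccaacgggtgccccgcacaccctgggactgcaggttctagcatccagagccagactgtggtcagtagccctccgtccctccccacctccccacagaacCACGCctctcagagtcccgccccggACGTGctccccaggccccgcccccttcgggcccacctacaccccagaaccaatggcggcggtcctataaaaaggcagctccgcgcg
Ldha: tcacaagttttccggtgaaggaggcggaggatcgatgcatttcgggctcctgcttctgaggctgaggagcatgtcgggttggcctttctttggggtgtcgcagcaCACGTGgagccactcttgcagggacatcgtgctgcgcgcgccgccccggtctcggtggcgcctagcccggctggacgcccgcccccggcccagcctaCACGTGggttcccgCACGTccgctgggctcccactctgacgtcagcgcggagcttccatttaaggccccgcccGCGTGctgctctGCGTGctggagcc
Eno3: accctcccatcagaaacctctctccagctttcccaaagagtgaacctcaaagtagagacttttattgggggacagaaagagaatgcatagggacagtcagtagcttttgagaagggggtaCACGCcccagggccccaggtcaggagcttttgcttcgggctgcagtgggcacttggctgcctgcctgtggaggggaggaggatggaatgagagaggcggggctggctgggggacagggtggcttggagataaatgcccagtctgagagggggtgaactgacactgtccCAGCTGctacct
Pgam2: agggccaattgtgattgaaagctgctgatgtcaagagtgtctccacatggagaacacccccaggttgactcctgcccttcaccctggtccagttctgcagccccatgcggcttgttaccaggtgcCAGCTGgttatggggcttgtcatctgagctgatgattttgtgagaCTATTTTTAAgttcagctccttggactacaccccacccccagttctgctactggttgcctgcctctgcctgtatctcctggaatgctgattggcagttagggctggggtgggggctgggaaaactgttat
The Ldha window held ACGTG 5 times and GCGTG 2 times, counted over both strands, and 2 of its sites were the palindrome CACGTG, in which ACGTG reads on each strand. Slc2a1 held 1 ACGTG and 1 GCGTG. Eno3 held 1 GCGTG and 1 CAGCTG, and Pgam2 held 1 CAGCTG and 1 MEF2 consensus. Over all 32851 RefSeq windows, 19.6% held ACGTG, 32.4% GCGTG, 7.15% CACGTG, 16.3% CAGCTG and 3.19% the MEF2 consensus. A match describes the letters of the window and is no measure of binding. Of the 10 genes, 9 had a window in the same source. Among those not printed, Hk2 (lower in E-&T+) held ACGTG 2 times. Pfkm (lower) held it 3 times at 1 of its starts, with 1 CACGTG. Hk1 (higher) held ACGTG 2 times and GCGTG 3 times at 1 of its starts. Aldoa (higher) held 1 ACGTG and 1 CAGCTG at 1 of its starts. The hypoxia-response core and CAGCTG thus each occurred among higher and lower genes.

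Tumor hearts with and without exercise (E+&T+ against E-&T+) came next, and 8 of the 10 genes had higher values. Hk2 was 1.62-fold higher (log2 0.69, 95% counting interval 0.60 to 0.78), Eno3 1.54-fold (0.625, 0.56 to 0.69) and Pfkm 1.41-fold (0.495, 0.40 to 0.59). Ldhb at 0.36 (0.32 to 0.41), Hk1 at 0.36 (0.24 to 0.48), Slc2a4 at 0.33 (0.23 to 0.42) and Pgam2 at 0.29 (0.22 to 0.36) were higher by less. Slc2a1 went the other way and was lower by log2 -0.72 (-1.05 to -0.40). Aldoa at 0.02 (-0.01 to 0.05) and Ldha at -0.05 (-0.11 to 0.02) did not differ beyond counting error.

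No member was called at 2-fold in this comparison (0 of 10), where 19.4% of 14363 genes and 5.24% of the genes averaging at least 500 normalized reads were called. By the read test 7 members were higher and 1 lower, against 20.0% and 19.6% of all genes, and against 42.7% and 28.2% of the genes averaging at least 500 normalized reads. The median of the members was 0.34, against -0.01 over all genes and 0.08 over those well-read genes. Under scaling to library size the values of Slc2a4, Hk1, Pfkm, Pgam2 and Ldhb turned negative, Slc2a1 reached -1.30 and so passed 2-fold, and Aldoa was below 0 under all 4 other scalings. The signs of Slc2a4, Hk1, Pfkm, Pgam2 and Ldhb turned under library size only. Scaled outside the globin genes, they were at 0.30, 0.32, 0.46, 0.26 and 0.33, and the member median was 0.31. Ldha came to 0.00077 when reads were thinned.

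Markers of other tissues moved in the same comparison. The 6 brown adipocyte markers summed to 461 normalized reads in the normal control, 535 in normal exercise, 900.05 in cancer control and 1988 in cancer exercise, and of the 5 tested in E+&T+ against E-&T+, 3 were called higher and 1 lower. Ucp1, the uncoupling protein that defines brown fat, had 814 reads in E+&T+ and 0 in each other library, and Elovl3 had 47 reads in E+&T+ and at most 2 elsewhere. Otop1 was also at 0 outside E+&T+, and Cpn2 was at 0 in E-&T-. Cidea alone made up 428, 417, 579 and 892 of the brown adipocyte sum in the order E-&T-, E+&T-, E-&T+, E+&T+. The 7 lung epithelial markers summed to 632, 169, 578 and 1873 in the same order of libraries, with Sftpd at 0 in E+&T-, and all 7 had higher values in E+&T+ than in E-&T+, 4 of them called. The 8 endothelial markers summed to 28163, 21341, 20048 and 27463.5, none at 0, and 0 of 8 were called in this comparison. Fabp4 alone made up 20072, 15054.5, 13105.5 and 19056 of the endothelial sum in that order. In E-&T+ against E-&T-, 3 of the 8 endothelial markers were called lower and 0 higher. Brown fat also expresses Slc2a4 and Hk2, and Pdk4 and Ppargc1a, which are described further on. Of the 9 fibroblast markers, 6 were called lower and 0 higher in E+&T+ against E-&T+. Of the 12 macrophage markers, 6 were called lower and 1 higher. The part of these tissues and cells in the values of the members, Pdk4 and Ppargc1a was not tested.

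In healthy hearts with and without exercise (E+&T- against E-&T-), most members lay close together. Slc2a1 was 1.57-fold higher (log2 0.65, 95% counting interval 0.25 to 1.08), on 148 and 74 reads. Pgam2 at 0.16 (0.10 to 0.22) and Ldha at 0.13 (0.05 to 0.21) were higher by the read test, and Pfkm at -0.19 (-0.28 to -0.10) was lower. The remaining 6 did not pass it, from Ldhb at -0.06 (-0.11 to -0.01) to Hk1 at 0.16 (0.02 to 0.29), with Slc2a4 at -0.04, Eno3 at -0.03, Aldoa at 0.04 and Hk2 at 0.08. Aldoa came to -0.00034 when genes over 1% of a library were left out of the library sizes.

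Calls at 2-fold numbered 0 of 10, where 12.3% of 13937 genes and 1.87% of the genes averaging at least 500 normalized reads were called. The read test gave 3 members higher and 1 lower, beside 11.0% and 9.59% of all genes and 27.5% and 14.0% of the genes averaging at least 500 normalized reads. The member median was 0.06, that of all genes 0.002 and that of the genes averaging at least 500 normalized reads 0.04.

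Between the exercised hearts, tumor cells (E+&T+ against E+&T-) went with higher Ldha at 0.50 (0.43 to 0.57), Hk1 at 0.38 (0.26 to 0.50), Ldhb at 0.34 (0.30 to 0.39), Aldoa at 0.33 (0.30 to 0.36) and Slc2a4 at 0.17 (0.08 to 0.27). Pgam2 at -0.38 (-0.44 to -0.32) and Eno3 at -0.21 (-0.27 to -0.15) were lower. Slc2a1 at -0.05 (-0.41 to 0.31), Hk2 at -0.04 (-0.12 to 0.04) and Pfkm at 0.01 (-0.08 to 0.11) lay within counting error. The 5 higher genes all turned negative under scaling to library size, Pfkm was below 0 under all 4 other scalings, and Pgam2 reached -1.10 under library size. Slc2a4 came to 0.00089 outside the globin genes, 0.00029 without genes over 1% of a library and 0.04 scaled to the cardiomyocyte list. Slc2a1 came to 0.08 when reads were thinned.

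Again 0 of 10 members were called at 2-fold, where 23.0% of 14289 genes and 7.67% of the genes averaging at least 500 normalized reads were called. The read test gave 5 higher and 2 lower, with 24.3% and 22.7% of all genes and 50.9% and 26.3% of the genes averaging at least 500 normalized reads. The member median of 0.09 was above that of all genes (-0.01) and below that of the genes averaging at least 500 normalized reads (0.15).

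**Figure D2:**
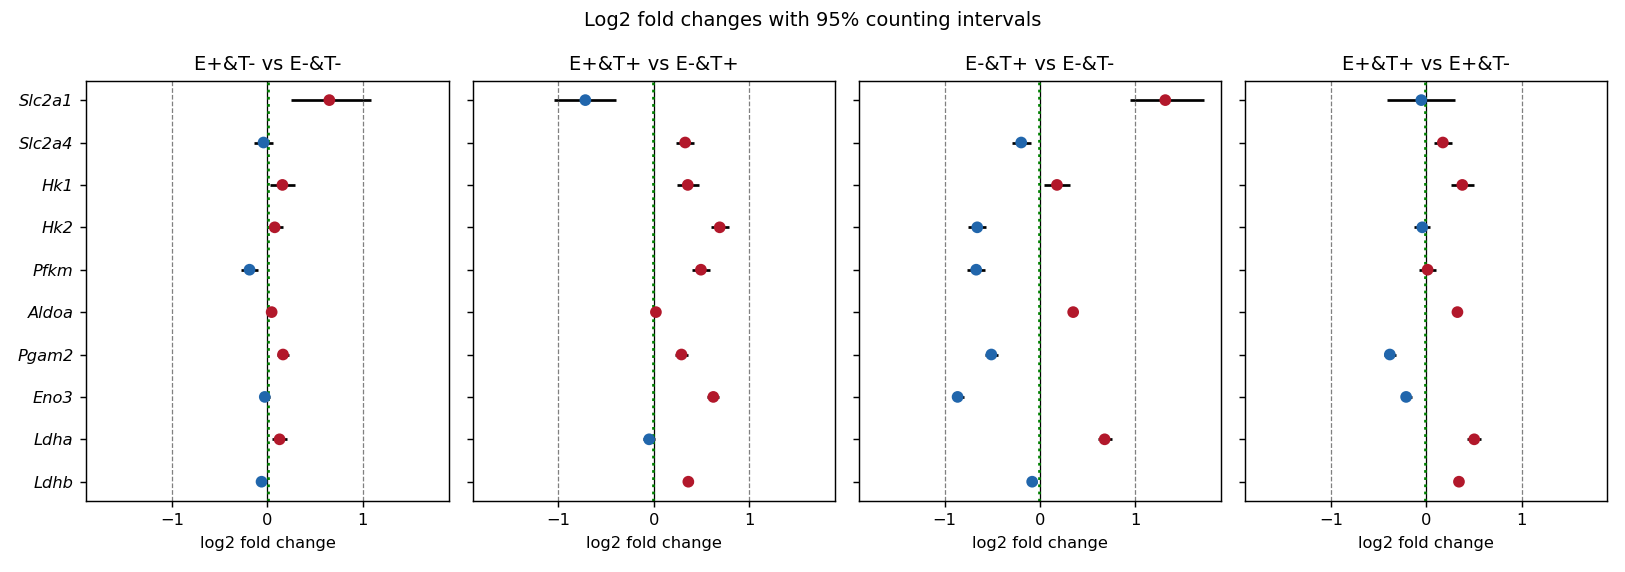
Log2 fold change (x axis) of the 10 genes in the 4 comparisons, with bars for the 95% interval of read counting only, red for higher and blue for lower values on the deposited scale. Dashed lines mark 2-fold and the dotted line the median of all genes. Slc2a1 in E-&T+ against E-&T- is the 1 point past 2-fold, and in E+&T+ against E-&T+ the signs of Slc2a4, Hk1, Pfkm, Pgam2 and Ldhb turn under library size scaling and that of Aldoa under all 4 other scalings. So do those of Slc2a4, Hk1, Aldoa, Ldha and Ldhb (library size) and Pfkm (all 4) in E+&T+ against E+&T-, and of Aldoa without genes over 1% of a library in E+&T- against E-&T-.

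The comparisons share libraries, E-&T+ being the tumor arm of one and the reference of another, so their values are set side by side and not as separate evidence. The log2 difference with exercise in tumor-bearing hearts minus that in healthy hearts was 0.68 for Pfkm (counting interval 0.55 to 0.82), 0.65 for Eno3 (0.57 to 0.74), 0.62 for Hk2 (0.49 to 0.74), 0.425 for Ldhb (0.36 to 0.49) and 0.37 for Slc2a4 (0.24 to 0.51). It was -1.37 for Slc2a1 (-1.88 to -0.85) and -0.18 for Ldha (-0.28 to -0.07), and -0.02 for Aldoa (-0.07 to 0.02). Hk1 at 0.20 (0.02 to 0.38) and Pgam2 at 0.13 (0.04 to 0.22) lay closer to 0. The median of 11638 genes averaging at least 16 normalized reads was 0.006. These contrasts are on the deposited scale and depend on it. Library size scaling moved the median of all genes with exercise to -0.60 in tumor-bearing hearts and to -0.02 in healthy hearts. With it Slc2a4, Hk1, Pfkm, Pgam2 and Ldhb were below 0 with exercise in tumor-bearing hearts.

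Shares within pairs of related genes do not depend on how a library is scaled, and all 3 pairs had their extreme in the sedentary tumor heart. Slc2a1 made up 4.50% of the reads of Slc2a1 and Slc2a4 in E-&T- (exact 95% binomial interval 3.55% to 5.62%), 7.11% in E+&T- (6.04% to 8.30%), 11.9% in E-&T+ (10.5% to 13.4%) and 6.14% in E+&T+ (5.11% to 7.31%). The insulin-responsive transporter thus kept most reads in every heart, from 7.39 to 21.2 reads of Slc2a4 per read of Slc2a1. The intervals of the exercised hearts overlapped, and that of E-&T+ overlapped no other.

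Hk2 took 72.4% of the reads of Hk1 and Hk2 in the normal control (70.7% to 74.0%), 71.2% in normal exercise (69.7% to 72.6%), 59.4% in cancer control (57.6% to 61.2%) and 64.9% in cancer exercise (63.3% to 66.5%). Both tumor hearts were below both healthy hearts, whose intervals overlapped. For Ldha the share of Ldha and Ldhb was 27.1% in the normal control (26.1% to 28.1%), 29.8% in normal exercise (28.9% to 30.7%), 38.7% in cancer control (37.8% to 39.5%) and 32.2% in cancer exercise (31.3% to 33.0%). No interval overlapped another, and Ldhb stayed the major subunit in all 4 hearts. These intervals cover counting error only, since reads without molecular identifiers are not independent molecules.

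**Figure D3:**
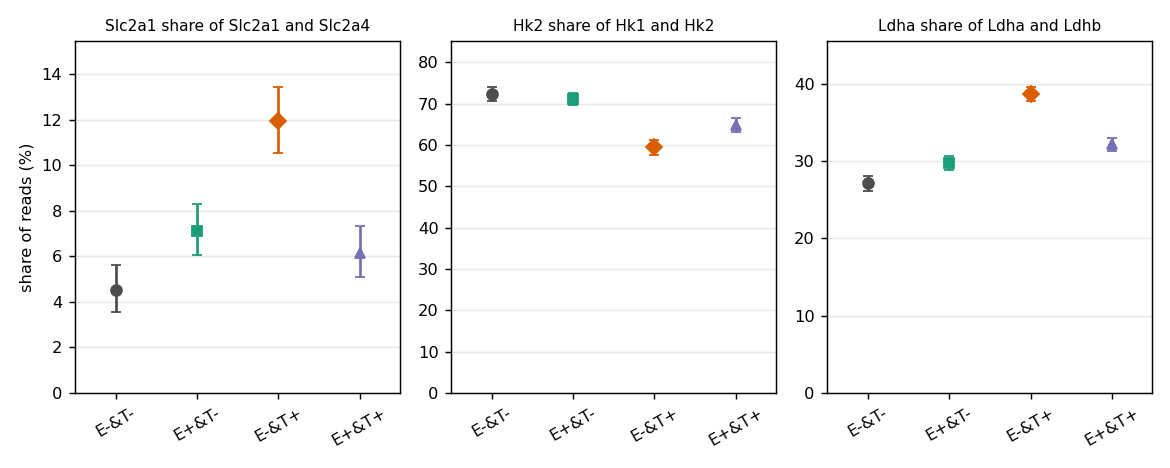
Share of reads (%, axes from 0) of Slc2a1 among Slc2a1 and Slc2a4, of Hk2 among Hk1 and Hk2, and of Ldha among Ldha and Ldhb in each library, with exact 95% binomial intervals. The sedentary tumor heart has the highest Slc2a1 share (11.9%) and Ldha share (38.7%) and the lowest Hk2 share (59.4%).

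Shares within wider enzyme families were examined after the member values were seen, and the same heart was apart for Eno3, Eno1b, Pfkp and Pfkl but not for Pfkm or Pgam2. Eno3 held 94.8% of enolase reads in the normal control, 94.6% in normal exercise and 94.1% in cancer exercise, but 88.2% in cancer control (87.2% to 89.2%). The rest was mostly on Eno1b, at 4.90%, 4.60%, 5.33% and 10.9% in those libraries. Eno1b is a near-identical copy of Eno1, the enolase of most tissues, and Eno1 itself was listed at 0 everywhere, so its reads may have been counted on the Eno1b rows. Pfkp, the platelet phosphofructokinase, held 9.64% of phosphofructokinase reads in the normal control, 12.0% in normal exercise, 18.3% in cancer control (16.7% to 19.95%) and 13.9% in cancer exercise. Pfkm held 72.4%, 64.9%, 68.7% and 66.1% in the order E-&T-, E+&T-, E-&T+, E+&T+, with the liver form Pfkl at 17.9%, 23.1%, 13.0% and 20.0%. Pgam2 held 91.3% of phosphoglycerate mutase reads in E-&T- (90.4% to 92.1%) and 91.7% in E-&T+ (90.8% to 92.6%), but 88.3% in E+&T- (87.5% to 89.1%) and 88.4% in E+&T+ (87.4% to 89.4%). Here the intervals of the sedentary hearts overlapped and lay above those of the exercised hearts, which also overlapped.

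Other glucose transporters and glycolytic enzymes were counted over a list of 16 genes, of which 14 passed the minimum in each comparison. The 2-fold calls of this and the following lists stand beside 27.6% of all genes in E-&T+ against E-&T-, 19.4% in E+&T+ against E-&T+, 12.3% in E+&T- against E-&T- and 23.0% in E+&T+ against E+&T-. In E+&T+ against E-&T+, 2 were called higher and 0 lower. Bpgm, which makes the 2,3-bisphosphoglycerate of red cells, had 471 normalized reads in the normal control, 434 in normal exercise, 343 in cancer control and 2948 in cancer exercise, a log2 difference of 3.10 (2.95 to 3.26) between the tumor hearts. The 21 erythroid markers, of which 19 were in the data, summed to between 646923 and 664966 normalized reads in 3 hearts and to 4724290 in E+&T+, with Rhag and Klf1 at 0 in E-&T- and E+&T- and Gata1 at 0 in E-&T-. The erythroid sums include the Hbb rows on which reads may have been counted more than once. Of the 18 erythroid markers tested, 17 were called higher in E+&T+ against E-&T+. Hk1, which red cells also use, was highest in that same library, and the part of red cells in the Hk1 and Bpgm values was not tested.

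Pfkl, the liver phosphofructokinase, had 545 normalized reads in the normal control, 689 in normal exercise, 263 in cancer control and 592 in cancer exercise. It was thus lower by log2 -1.05 in E-&T+ against E-&T- (-1.27 to -0.84) and higher by 1.17 in E+&T+ against E-&T+ (0.96 to 1.38). Slc2a3, a transporter of neurons and white cells, had 17.3, 10.7, 37.2 and 31.6 normalized reads in the order E-&T-, E+&T-, E-&T+, E+&T+. In E-&T+ against E-&T- the list had 1 call higher and 1 lower, in E+&T+ against E+&T- 2 higher, and in E+&T- against E-&T- 1 higher, Eno2, at 53 against 13 reads. Pkm, the pyruvate kinase of muscle, named after its values were seen, stayed between 3477 and 3732 normalized reads.

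Beyond glycolysis, the pyruvate dehydrogenase list held 12 genes, all tested. Pdk4, the kinase that shuts the complex when fat is burned, had 161 normalized reads in the normal control, 77.7 in normal exercise, 16.5 in cancer control and 83.1 in cancer exercise. It was lower by log2 -3.21 in E-&T+ against E-&T- (-4.04 to -2.57) and by -1.04 in E+&T- against E-&T- (-1.46 to -0.66), and higher by 2.26 in E+&T+ against E-&T+ (1.57 to 3.12). Pdk3, a related kinase, had 15.1, 24.3, 65.4 and 74.2 normalized reads in the same order of libraries, and so ran the other way with tumor cells in sedentary hearts (2.04, 1.27 to 3.11). In exercised hearts Pdk3 was higher by 1.57 (0.94 to 2.31) and Pdk4 lay within counting error, at 0.095 (-0.37 to 0.56). Pdp2, a phosphatase that reopens the complex, was called lower in E-&T+ against E-&T- (-1.32) and higher in E+&T+ against E-&T+ (1.10). All 12 values were above 0 in the last comparison with 2 called, and their median was 0.34 against -0.01 over all genes. These values are on the deposited scale only, and library size scaling moved the median of all genes there to -0.60. In E-&T+ against E-&T-, 1 was called higher and 2 lower, with a median of -0.35. In E+&T- against E-&T- 2 were called lower and in E+&T+ against E+&T- 2 higher, and in each the second gene was Pdpr, outside the rule for named genes, on 10 reads or fewer.

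Lactate and pyruvate transport was a list of 6 genes. Slc16a3, the lactate exporter Mct4, had 9.41 normalized reads in the normal control (8 reads), 29.8 in normal exercise, 38.8 in cancer control and 63.2 in cancer exercise, so the healthy sedentary heart was the lowest. It was called higher against E-&T- in E+&T- (1.565, 0.56 to 3.03) and in E-&T+ (1.94, 0.98 to 3.38), and in E+&T+ against E+&T- (1.06, 0.45 to 1.75). The list had 1 higher call in every comparison, and 1 lower call in E-&T+ against E-&T-. The lower call, and the higher call in E+&T+ against E-&T+, was Slc16a7, on 3 reads in E-&T+ and named after its values were seen.

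Glycogen genes made a list of 20, with 19 tested. Ppp1r3b and Ppp1r3c, which bring the glycogen-activating phosphatase to glycogen, were low in tumor hearts. Ppp1r3b had 159 normalized reads in the normal control, 176 in normal exercise, 16.5 in cancer control and 49.4 in cancer exercise, and its log2 difference was -3.19 (-4.02 to -2.55) in E-&T+ against E-&T-. Ppp1r3c had 1399.8, 1596, 494 and 575 in that order, and its differences with tumor cells were -1.50 in sedentary and -1.47 in exercised hearts. Phka1, a subunit of the kinase that switches on glycogen breakdown, was the reverse, at 147, 147, 304 and 485 normalized reads. By counts, 1 gene was called higher and 3 lower in E-&T+ against E-&T-, so 4 of 19 where 27.6% of all genes were called, 1 higher in E+&T+ against E-&T+, 1 lower in E+&T- against E-&T-, and 3 higher and 2 lower in E+&T+ against E+&T-. Besides Phka1, those higher calls were Ppp1r3a (1.58) and Phkg1, the latter outside the rule for named genes. Ppp1r3d was called lower in E+&T- (-1.19) and in E-&T+ (-1.82), each against E-&T-.

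The bifunctional enzymes that set fructose 2,6-bisphosphate, the activator of phosphofructokinase, divided by isoform among 7 genes. Pfkfb2, the heart form, had 188 normalized reads in the normal control, 190.1 in normal exercise, 59.8 in cancer control and 97.4 in cancer exercise. Pfkfb3, the inducible form, had 65.5, 80.4, 186 and 186. With tumor cells in sedentary hearts the former was lower by log2 -1.635 (-2.08 to -1.23) and the latter higher by 1.49 (1.08 to 1.96), and in exercised hearts Pfkfb3 was higher by 1.20 (0.83 to 1.59). The list had 2 calls higher and 1 lower in E-&T+ against E-&T-, 1 each way in E+&T+ against E-&T+ (Pfkfb1 higher at 1.04), 1 higher in E+&T+ against E+&T-, and 0 in E+&T- against E-&T-. Fbp1, outside the rule for named genes and on 15 reads or fewer, was the second higher call of the first of these and the lower call of the next. The 13 neutrophil markers summed to 168 normalized reads in the normal control, 116 in normal exercise, 4286 in cancer control and 6604 in cancer exercise, with 12 of 12 tested called higher in both tumor comparisons. Camp, Elane, Mpo and Mmp8 were at 0 in E-&T-, Ltf and Mmp8 in E+&T-, and Elane in E+&T+. Their part in the values of Pfkfb3, Slc2a3 and Slc16a3 was not tested.

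The pentose phosphate and hexosamine branches gave 12 genes tested of 13. Gfpt2, an entry enzyme of the hexosamine branch, had 106 normalized reads in the normal control, 235 in normal exercise, 350.2 in cancer control and 399 in cancer exercise, and it was called higher against E-&T- in both E+&T- (1.145, 0.81 to 1.52) and E-&T+ (1.72, 1.40 to 2.07). Tkt, the transketolase, had 270.3, 121, 133 and 194, called lower in the same pair of comparisons. Called in each comparison were 1 higher and 1 lower for E+&T- against E-&T-, 2 higher and 2 lower for E-&T+ against E-&T- (with Uap1 at 1.002 and Rpia at -1.10), 0 for E+&T+ against E-&T+, and 1 lower for E+&T+ against E+&T-, Gfpt1 at -1.38.

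Insulin signaling toward Glut4 was a list of 15 genes, all tested. Tbc1d4, the brake on Glut4 traffic that Akt releases, had 401 normalized reads in the normal control, 359 in normal exercise, 136 in cancer control and 289.8 in cancer exercise. Sort1, the sortilin of Glut4 vesicles, had 189, 215, 64.2 and 136. Both were lower in E-&T+ against E-&T-, at -1.55 (-1.84 to -1.28) and -1.54 (-1.97 to -1.15), and both were higher in E+&T+ against E-&T+, at 1.08 and 1.07. Irs2, an insulin receptor substrate, was called higher against E-&T- in E-&T+ (2.02) and E+&T- (1.16), on 17 reads in E-&T-, and Irs1 was called lower in E+&T+ against E+&T- (-1.50). In all there was 1 call higher in E+&T- against E-&T-, 2 higher in E+&T+ against E-&T+, 1 higher and 2 lower in E-&T+ against E-&T-, and 1 lower in E+&T+ against E+&T-. Slc2a4 itself was lower by only -0.20 in E-&T+. The 9 white adipocyte markers, cells that also express Slc2a4, summed to 2987 normalized reads in the normal control, 941 in normal exercise, 717 in cancer control and 3166 in cancer exercise, the same order of libraries as Slc2a4. Lep was at 0 in the last 3 of these and Plin1 in E-&T+. Cfd alone made up 1228, 339, 348 and 1885 of the white adipocyte sum in the same order. Car3, Retn, Cidec, Slc7a10 and Lep were highest in E-&T-, and Adipoq, Plin1, Cfd and Lipe in E+&T+. In E+&T+ against E-&T+, 6 of the 8 tested were called higher and 1 lower. The part of white adipocytes in the Slc2a4 values was not tested.

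Last came 17 transcription factors and glucose sensors. Txnip and Arrdc4, related arrestin proteins that restrain glucose uptake, did not go together. Txnip had 6364 normalized reads in the normal control, 2260.4 in normal exercise, 3904 in cancer control and 4365 in cancer exercise, and it was called lower with exercise in healthy hearts (-1.49, -1.56 to -1.43). Arrdc4 had 64.5, 85.8, 589.6 and 453, called higher with tumor cells in sedentary (3.17, 2.80 to 3.62) and exercised hearts (2.39, 2.07 to 2.73). Ppargc1a, a coactivator of mitochondrial genes, had 932, 858, 488 and 1178, and Egln3, an oxygen-sensing prolyl hydroxylase, had 451, 739.8, 217 and 581, both with the lowest level in E-&T+. Both were called higher in E+&T+ against E-&T+, at 1.27 and 1.42. Klf15, a glucocorticoid-responsive factor of heart metabolism that is also tied to Slc2a4, had 117, 91.2, 265 and 96.3, with the highest level in E-&T+. It was called higher in E-&T+ against E-&T- (1.17, 0.85 to 1.52) and lower in E+&T+ against E-&T+ (-1.45). The list had 3 calls higher and 1 lower in E-&T+ against E-&T-, 2 higher and 1 lower in E+&T+ against E-&T+, 2 higher in E+&T+ against E+&T-, and 1 lower in E+&T- against E-&T-. Among these, Myc, outside the rule for named genes, was called higher in both tumor comparisons, on 14 reads or fewer.

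**Figure D4:**
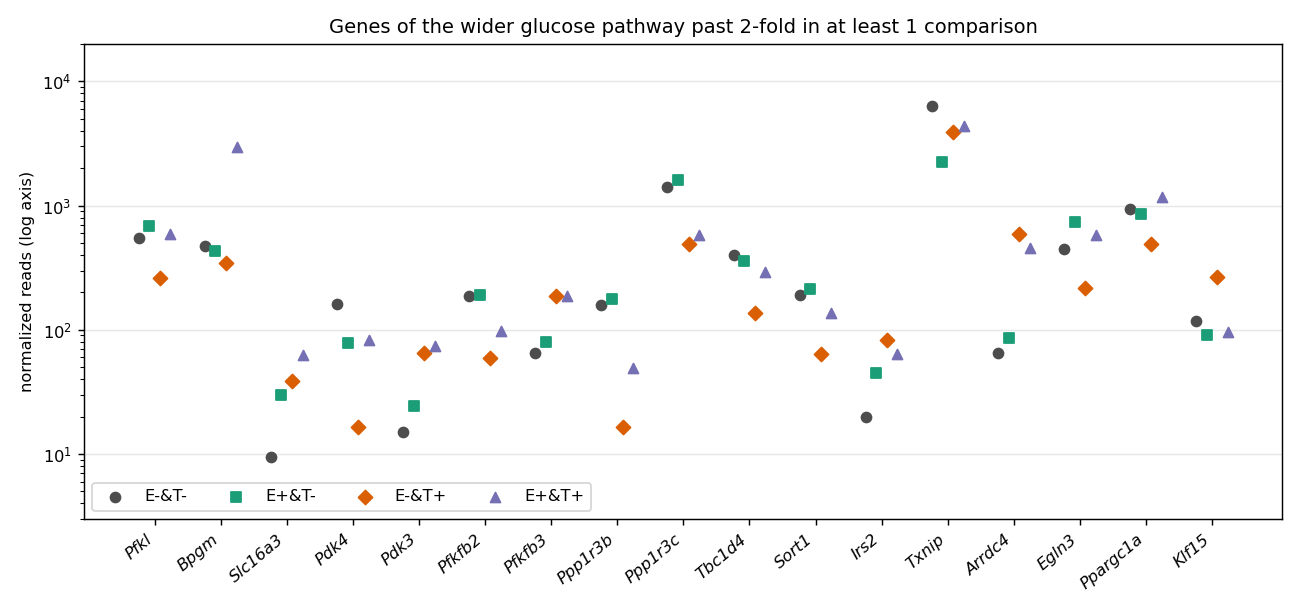
Normalized read count (log axis) of genes from the wider glucose pathway lists in each of the 4 libraries, 1 point per library, for a selection of the named genes past 2-fold in at least 1 comparison. E-&T+ holds the lowest point of Pfkl, Pdk4, Pfkfb2, Ppp1r3b, Tbc1d4, Sort1, Egln3 and Ppargc1a, and Bpgm is high in E+&T+.

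By position, all in GRCm38, Slc2a1 lies at chr4:119108711-119137983, Slc2a4 at chr11:69942539-69948188, Hk1 at chr10:62268855-62379908 and Hk2 at chr6:82725025-82774454. Pfkm lies at chr15:98092589-98132451, Aldoa at chr7:126795234-126800751, Pgam2 at chr11:5801640-5803733 and Eno3 at chr11:70657202-70662513. Ldha lies at chr7:46841475-46855627 and Ldhb at chr6:142490249-142507957. Exons of 4 members share bases with another gene, namely Slc2a1 with Gm12868, Hk1 with Hk1os, Pfkm with Senp1 and Gm26513, and Aldoa with Fam57b. Whether counting used strand was not given in the sources used here, so reads of these partners cannot be told apart, although Hk1os was listed with 0 to 3 reads. Aldoa also has a processed copy, Aldoart1, with 77 to 97 reads, and Aldoart2, with 1 to 12 reads, which may have taken some of its reads. Gapdh, which is often used for reference and has many copies, had between 690 and 1029 normalized reads and is uncertain for that reason.

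**Figure D5:**
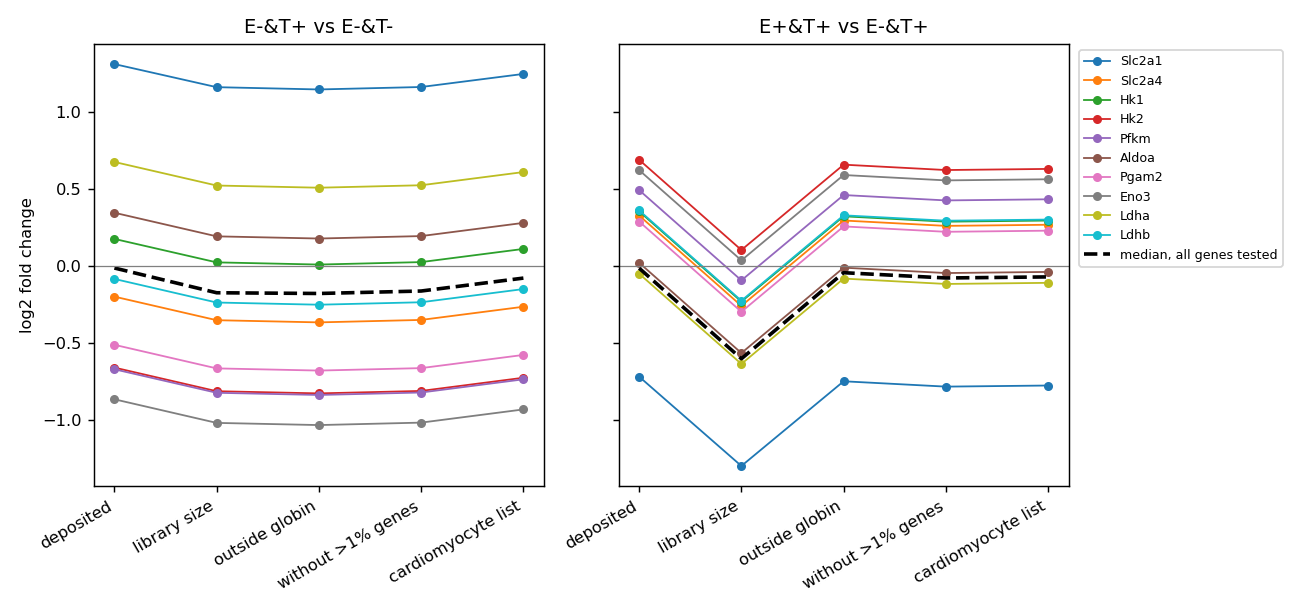
Log2 fold change of the 10 genes under the deposited normalization and 4 other scalings, for tumor cells in sedentary hearts (left) and exercise in tumor-bearing hearts (right), with the median of all genes dashed. The members shift with the dashed line, and in the right panel library size scaling moves that line to -0.60 and takes Slc2a4, Hk1, Pfkm, Pgam2 and Ldhb below 0, and Aldoa lies below 0 under all 4 other scalings.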

How the data were processed

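Heart RNA of 4 groups, 1 library each, was read by 3′ mRNA sequencing on an Illumina instrument. Per the study's methods the authors aligned reads with Bowtie2, counted them with Bedtools and normalized them by the quantile method of edgeR, with versions not given in the sources used here. The genome build, mm10, is not named in those methods. The deposited values are log2 of the normalized count plus 1, to 3 decimals. Whole reads were recovered by inverting that step with a common dispersion of 0.149, and of the 25029 values standing for 5 to 99 reads 100% came out whole, to a tolerance of 0.1 read. These reads gave the depth of each library, from 6595423 to 11546028, and the counting error.

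Differences were taken between deposited log2 values, with a pseudocount of 1, and called at 2-fold with at least 4 normalized reads in 1 of the libraries compared. With 1 library per group no test compares conditions. Reads of each library pair were compared by an exact binomial test, two-sided, adjusted by Benjamini-Hochberg over all genes tested at 0.05, with exact 95% intervals for ratios and shares. The procedure was tested on simulated data. The alternatives were 4 other scalings, a minimum of 16 or none, a pseudocount of 4, and thinning to the smallest library. Members and gene lists were chosen with earlier results of these data known. From each pathway list, up to 4 genes with the largest difference in a comparison, past 2-fold and averaging at least 16 normalized reads, were named. H6pdx, Epb42 and Ahsp of the lists had no row, and 2 genes are not reported here. Promoters came from RefSeq (GRCm38.p6) and positions from GENCODE. The work was done in Python 3.11.15, statistics with scipy 1.17.1 and numpy 2.4.6, tables with pandas 2.3.3 and plots with matplotlib 3.10.9.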

Additional observations from a re-analysis of the deposited data

Results flagged for a closer look

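Some members differed in opposite directions with and without tumor cells, or with and without exercise, each with a counting interval that left out 0. With 1 library per group these contrasts were not tested, and each rests on 4 libraries.

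Slc2a1 was higher with exercise in healthy hearts (log2 0.65) and lower in tumor-bearing hearts (-0.72), a difference of -1.37. Pfkm was lower with exercise in healthy hearts (-0.19) and higher in tumor-bearing hearts (0.495), a difference of 0.68. Ldhb with exercise was -0.06 in healthy and 0.36 in tumor-bearing hearts, a difference of 0.425, although its value in healthy hearts did not pass the read test. With tumor cells, Slc2a4 was -0.20 in sedentary and 0.17 in exercised hearts, a difference of 0.37. Ldhb with tumor cells was -0.08 in sedentary and 0.34 in exercised hearts, again a difference of 0.425. Under library size scaling the values of Pfkm (-0.09) and Ldhb (-0.22) with exercise in tumor-bearing hearts, and of Slc2a4 (-0.55) and Ldhb (-0.38) with tumor cells in exercised hearts, were below 0, so the opposite directions were then lost. Slc2a4 with tumor cells in exercised hearts was also near 0 otherwise. It came to 0.00089 outside the globin genes, 0.00029 without genes over 1% of a library and 0.04 scaled to the cardiomyocyte list. The opposite directions of Slc2a1 held under all 4 other scalings.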

How the results depend on the processing

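The 40 member differences were recomputed under 8 alternatives. Of 320 values, 234 stayed within the counting interval of the deposited value, 86 lay beyond it and 22 had the other sign, which touched 15 of the 40 differences. The minimum and the pseudocount moved none beyond it.

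Members past 2-fold came to 1 in E+&T+ against E-&T+, 2 in E-&T+ against E-&T- and 1 in E+&T+ against E+&T- under library size scaling, and to 2 in E-&T+ against E-&T- both outside the globin genes and without genes over 1% of a library. Under library size scaling the member medians were -0.24, -0.29 and -0.63 in those comparisons. In E-&T+ against E-&T- the median was -0.31 outside the globin genes and -0.29 without genes over 1% of a library. In E+&T+ against E+&T- it was -0.079 and -0.080 under these, and -0.037 scaled to the cardiomyocyte list. The medians of all genes moved with the scaling, as the report gives. Thinned to the smallest library, the Ldha share in E+&T+ was 33.3%.

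No paired analysis was possible because each group has 1 library, and with 1 library no replicate was left out. Spread between animals is unknown, so intervals are too narrow for statements on conditions. Slc2a1 rests on 74 to 241 reads.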
